A study of Homo sapiens with 6 samples.

Results

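The 34 genes described here encode the enzymes of glycolysis, the carriers of glucose and lactate across the plasma membrane, the lactate dehydrogenases, the phosphoglucomutases and the enzymes of the pentose phosphate pathway. They were chosen by gene symbol from a list fixed with earlier results of these data known. All 34 were found among the 12793 rows of a table of FPKM (fragments per transcript length and per mapped total). The table covers 6 RNA-seq libraries of HCT15, an established line of human colorectal carcinoma cells. The 3 control libraries carry titles beginning sgctrl and the genotype WT, and the 3 others carry titles beginning sgRBM15 and the genotype RBM15 Knockout, made with CRISPR/Cas9. RBM15 is an RNA-binding protein that guides the m6A methyltransferase to its targets, and the series title names metabolic reprogramming as the interest of the study. All cells grew in RPMI-1640 medium with serum, and no treatment is named. The guide sequence and the use of a pool or a clone were both not given in the sources used here. Separate cultures are not mentioned in any label, so p-values here reflect only how far these libraries differed among themselves, a spread that may be technical.

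Glycolysis splits glucose into pyruvate in the cytosol and yields ATP and NADH. Lactate dehydrogenase turns pyruvate into lactate and restores NAD+, and lactate leaves the cell through monocarboxylate transporters. The pentose phosphate pathway branches off at glucose 6-phosphate: its oxidative arm makes NADPH, and its reversible arm exchanges sugar phosphates with glycolysis and supplies ribose for nucleotides. Tumour cells, those of the colon included, commonly run glycolysis to lactate even when oxygen is present. Most steps have several isozymes, encoded by separate genes and used to different degrees in different tissues.

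RBM15 itself was measured first because the labels name it as the target, though an mRNA level cannot tell whether a protein was lost. RBM15 mRNA stood at 5.97, 5.89 and 5.51 FPKM in sgctrl libraries 1, 2 and 3, and 17.3, 18.5 and 18.0 FPKM in sgRBM15-labelled libraries 1, 2 and 3. The targeted mRNA was thus higher, not lower, in every library labelled knockout (log2 difference 1.48, SE 0.049, limma adjusted p = 3.88e-06, and p = 0.1 in the exact 2-sided permutation test, the smallest that 3 against 3 libraries allow). Directions below therefore rest on the labels alone: a gene that "rose" was higher in the sgRBM15-labelled libraries, and one that "fell" was lower, with an adjusted p of at most 0.05 over all genes tested. Of 10 markers of colorectal epithelium, 7 were listed, with a summed level of 3791 to 3885 FPKM in the sgctrl libraries against 3479 to 3619 FPKM in the sgRBM15-labelled libraries. EPCAM (528 ± 5.30 to 415 ± 3.68 FPKM), CDX2 (20.9 ± 0.138 to 9.52 ± 0.254 FPKM), CDH17, KRT19 and KRT18 fell, CDH1 did not pass, and KRT20, CDX1 and LGALS4 were not among the listed rows. KRT8 rose by 0.11 on the log2 scale, a call lost without a variance trend and without any 1 library but sgRBM15-labelled library 3 (0.08 to 0.11). Of 14 markers of immune cells, fibroblasts, endothelium and mesenchyme, only CD68 (2.91 ± 0.216 and 6.68 ± 0.632 FPKM) and COL1A1 (1.15 ± 0.245 and 1.18 ± 0.306 FPKM) were listed. The part that these marker changes play in the results below was not tested. In bulk RNA, fewer cells of a type and less RNA per cell cannot be told apart.

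Of the 34 genes, 26 passed the test, 15 higher and 11 lower in the sgRBM15-labelled libraries. Over all 11451 genes tested, 54.5% passed, 25.3% higher and 29.2% lower, so the 76.5% of members that passed, 44.1% higher and 32.4% lower, are to be read against those shares. The share was also taken by level, and whether level bears on the count of members was not tested. Of the 1551 genes averaging 50 FPKM or more, a limit set after the data were seen, 61.1% passed, 32.7% higher and 28.4% lower. Among the 19 members at that level 15 passed (78.9%), 9 higher and 6 lower. Of the 15 members below that level 11 passed (73.3%), 6 higher and 5 lower, against 54.5% of tested genes at all levels. The changes were small. Of the 26 changed members, 15 differed by less than 1.2-fold on the log2(FPKM + 1) scale, on which all log2 differences below were computed, and 7 differed by at least 1.3-fold. The median log2 difference was 0.079 for the members and -0.018 for all genes, and the median size of the difference was 0.191 and 0.206. The 3 values of one group lay outside the range of the other for the 26 members that passed (76.5%), 15 higher and 11 lower, and for none of the other 8. Over all tested genes 63.0% did so, 29.6% higher and 33.4% lower. Exons of 9 members overlap those of another listed gene (ALDOA, ENO3, PFKFB2, PFKM, PGK1, PGM1, RPE, SLC16A3 and TPI1), and 5 of these 9 and 21 of the other 25 passed. The 34 genes made up 2.48 ± 0.0186% of all listed FPKM in the sgctrl libraries against 2.56 ± 0.0128% in the sgRBM15-labelled libraries (SD, n = 3).

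**Figure D1:**
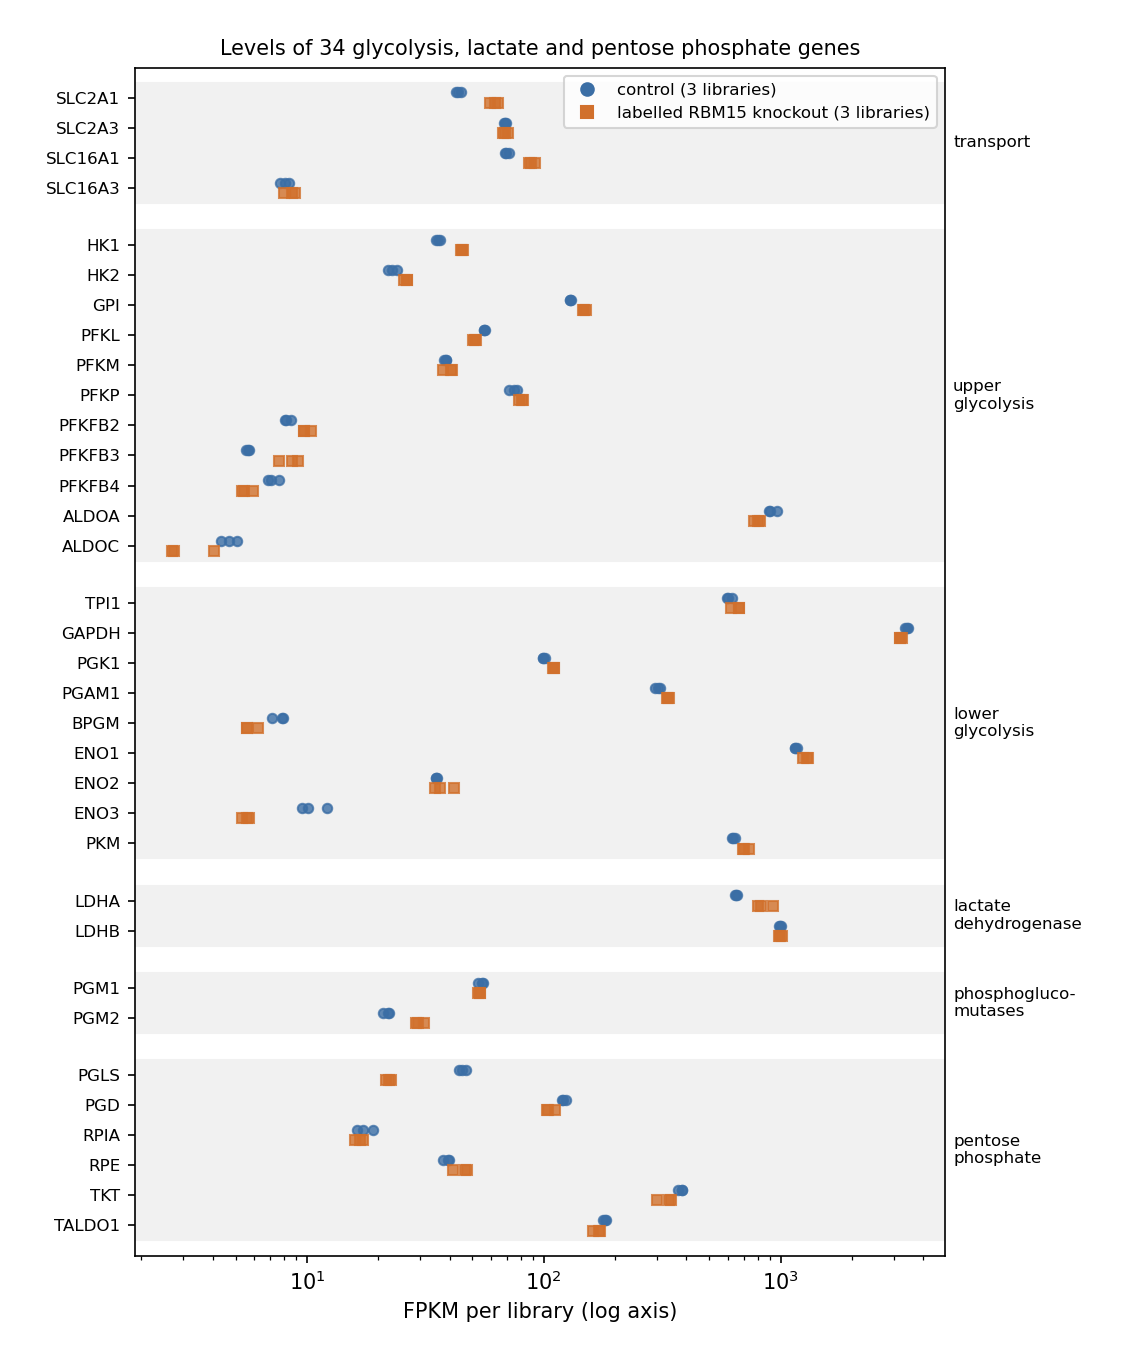
FPKM of each of the 34 genes in each library on a log axis, with circles for the 3 control libraries and squares for the 3 sgRBM15-labelled libraries, grouped by role. Levels run from ALDOC, at 2.69 to 5.08 FPKM, to GAPDH, at 3185 to 3453 FPKM, and the differences between groups are small beside the differences between genes.

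The members called higher and lower can be set beside the letters of their promoters. Hypoxia-inducible factors read a core of ACGTG or GCGTG, and basic helix-loop-helix factors such as MYC with MAX read the E-box CACGTG, which contains ACGTG on both strands. In RefSeq windows of 300 bases on GRCh38.p14 (250 bases before and 50 after the most upstream start listed), which 31 of the 34 members have, ACGTG on either strand was found in 12 (38.7%), GCGTG in 15 (48.4%) and CACGTG in 4 (12.9%). In all 27305 windows, 1 per gene, the shares were 21.6%, 36.4% and 7.41%, and in the 9137 windows of genes tested here they were 27.5%, 52.3% and 10.4%. The median GC content was 68.7% in the windows of members, 65.7% in those of tested genes and 58.3% in all windows. ACGTG was in 5 of 13 windows of members called higher and in 5 of 11 of members called lower, and GCGTG in 8 of 13 and 5 of 11. The E-box letters were in the windows of LDHA and PGM2, which rose, and of ALDOC and GAPDH, which fell. The calls of ALDOC and GAPDH were each lost in several alternative settings, given with these genes below. The bases after the start in the GAPDH window were found in 0 of 11 GENCODE 29 transcripts of the gene, so its place at a start of GAPDH is uncertain and its sequence is not shown. The 250 bases before the start are shown for LDHA (chr11:18394313-18394562, plus strand), PGM2 (chr4:37826436-37826685, plus strand) and ALDOC (chr17:28576896-28577145, minus strand), because these windows hold the same letters while the genes went in opposite directions. They read 5′ to 3′ on the strand of the gene, and capitals mark ACGTG or GCGTG on either strand.
LDHA: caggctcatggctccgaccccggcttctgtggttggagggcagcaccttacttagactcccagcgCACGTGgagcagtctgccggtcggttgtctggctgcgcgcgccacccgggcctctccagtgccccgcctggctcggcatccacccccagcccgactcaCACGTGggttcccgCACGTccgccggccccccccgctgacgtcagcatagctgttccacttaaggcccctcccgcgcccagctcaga
PGM2: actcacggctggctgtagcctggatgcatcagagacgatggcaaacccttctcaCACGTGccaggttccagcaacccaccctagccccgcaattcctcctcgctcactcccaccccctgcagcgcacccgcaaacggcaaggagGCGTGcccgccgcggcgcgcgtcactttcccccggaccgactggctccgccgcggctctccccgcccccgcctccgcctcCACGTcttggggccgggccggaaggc
ALDOC: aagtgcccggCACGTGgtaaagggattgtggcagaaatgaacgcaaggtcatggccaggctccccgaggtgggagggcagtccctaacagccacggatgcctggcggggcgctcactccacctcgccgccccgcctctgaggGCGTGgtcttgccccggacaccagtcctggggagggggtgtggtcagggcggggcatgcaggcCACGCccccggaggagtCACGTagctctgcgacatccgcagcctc
Capitals form 3 runs in LDHA, of which 2 are the E-box, 3 runs in PGM2 and 4 runs in ALDOC. A match of letters is a description of the window and not evidence of binding, and windows with and without these letters were found among the genes that rose and the genes that fell.

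Of the 4 transporter genes, SLC2A1 and SLC16A1 rose and neither SLC2A3 nor SLC16A3 passed the test. SLC2A1 encodes GLUT1, the widespread glucose transporter, and lies on chromosome 1 at 42925375 to 42959176 (GRCh38, GENCODE 29). Its mRNA was measured at 42.4, 44.8 and 43.3 FPKM in the sgctrl libraries, in library order, against 59.3, 62.3 and 63.8 FPKM in the sgRBM15-labelled libraries. The groups did not overlap, and the difference of 0.50 (SE 0.040, limma adjusted p = 9.83e-05) came to a ratio of means of 1.42. SLC16A1, which encodes the lactate transporter MCT1, stood at 71.5, 68.7 and 69.4 FPKM in the sgctrl libraries against 88.4, 86.8 and 91.5 FPKM in the sgRBM15-labelled libraries. Every library labelled knockout was above every control (log2 difference 0.34, SE 0.033). SLC2A3, which encodes the high-affinity transporter GLUT3, overlapped between groups at 68.4 ± 0.756 and 68.9 ± 1.83 FPKM (SD, n = 3), with a 95% interval of the log2 difference from -0.06 to 0.09. SLC16A3, the gene of the lactate exporter MCT4, was low and overlapped as well (8.07 ± 0.363 and 8.51 ± 0.436 FPKM, interval -0.07 to 0.20), and passed only after a GC and length trend was removed (0.16). Its exons overlap those of CSNK1D. Within the pair of glucose transporters, SLC2A1 made up 38.9 ± 0.85% of the summed FPKM in the sgctrl libraries against 47.3 ± 1.5% in the sgRBM15-labelled libraries. MCT1 was the main lactate transporter mRNA in both groups, at 89.7 ± 0.24% and 91.3 ± 0.62% of the pair.

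In upper glycolysis, from hexokinase to aldolase, 6 of 11 genes rose and 4 fell, against 25.3% and 29.2% of all genes tested. Both hexokinase genes, whose enzymes trap glucose in the cell by phosphorylation, rose. HK1 stood at 35.7, 35.2 and 36.4 FPKM in the sgctrl libraries against 44.6, 45.4 and 45.2 FPKM in the sgRBM15-labelled libraries, and HK2 at 24.0, 22.8 and 22.0 against 25.8, 26.5 and 26.5 FPKM. Neither gene overlapped between groups. HK1 differed by 0.33 (SE 0.030, limma adjusted p = 1.79e-04) and HK2 by 0.19 (SE 0.042, adjusted p = 0.00777), a call lost once a GC and length trend was taken out (0.11, adjusted p = 0.0569). GPI, the gene of the isomerase that makes fructose 6-phosphate, rose from 129.9, 129.6 and 129 FPKM to 151, 148 and 147 FPKM (log2 difference 0.20, SE 0.025), again without overlap.

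The phosphofructokinase subunit genes, which encode the committed step of glycolysis, went different ways, and their sum overlapped between groups at 169 ± 2.89 and 171 ± 2.79 FPKM. PFKL, the liver-type subunit, fell from 55.7, 56.5 and 56.1 FPKM to 50.1, 51.4 and 51.5 FPKM, without overlap between groups (log2 difference -0.13, SE 0.029, limma adjusted p = 0.00672). That call was lost once a GC and length trend was taken out (-0.05, adjusted p = 0.147). PFKP, the platelet-type subunit, stood at 74.5, 76.8 and 71.6 FPKM in the sgctrl libraries against 78.5, 80.9 and 81.7 FPKM in the sgRBM15-labelled libraries. Its groups lay close together (log2 difference 0.11, limma adjusted p = 0.0340), and it was no longer called under quantile normalization (0.083), without a variance trend, and without sgctrl library 1 (0.11), sgctrl library 3 (0.085), sgRBM15-labelled library 2 (0.11) or sgRBM15-labelled library 3 (0.099). It was 0.18 (adjusted p = 0.00533) with GC and length trends removed. PFKM, the muscle-type subunit, overlapped between groups (38.3 ± 0.383 and 39.7 ± 1.75 FPKM, interval of the log2 difference -0.04 to 0.14). The share of PFKL in the sum of the subunits was 33.3 ± 0.46% in the sgctrl libraries and 29.8 ± 0.36% in the sgRBM15-labelled libraries, and that of PFKP 44.1 ± 0.86% and 47.0 ± 0.58%.

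The genes of the bifunctional enzymes that make and break down fructose 2,6-bisphosphate, the allosteric activator of phosphofructokinase, also went apart. PFKFB3, whose enzyme strongly favours synthesis of the activator, rose without overlap between groups. It stood at 5.64, 5.67 and 5.51 FPKM in the sgctrl libraries against 8.62, 9.15 and 7.64 FPKM in the sgRBM15-labelled libraries. All 3 of the latter were above all controls, though they were spread more widely (log2 difference 0.52, SE 0.068, limma adjusted p = 8.00e-04). PFKFB2 rose from 8.55, 8.20 and 8.11 FPKM to 9.76, 9.75 and 10.4 FPKM. Its groups did not overlap, and its difference of 0.24 was 0.11 once a GC and length trend was taken out (adjusted p = 0.0691). Its exons overlap those of YOD1, which rose as well (10.3 ± 0.421 to 18.3 ± 0.151 FPKM). PFKFB4 fell from 6.82, 7.02 and 7.62 FPKM to 5.34, 5.43 and 5.92 FPKM (log2 difference -0.31, SE 0.062), every control being above every library labelled knockout. PFKFB3 made up 26.6 ± 0.63% of the 3 genes' summed FPKM in the sgctrl libraries against 35.3 ± 3.0% in the sgRBM15-labelled libraries, while PFKFB4 made up 32.5, 33.6 and 35.9% against 22.5, 22.3 and 24.7%.

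Aldolase splits the sugar bisphosphate into trioses, and both aldolase genes fell. ALDOA, the main form, stood at 893, 897 and 963 FPKM in the sgctrl libraries against 820.3, 804 and 772 FPKM in the sgRBM15-labelled libraries. The groups did not overlap (log2 difference -0.20, SE 0.038, limma adjusted p = 0.00426), although sgctrl library 3 stood above the others of its group. ALDOC, the brain form, was the least abundant of the 34 genes at 4.32, 5.08 and 4.71 against 2.69, 2.76 and 4.04 FPKM. The sgRBM15-labelled library 3 stood close to the controls. The ALDOC call (log2 difference -0.47, SE 0.13, adjusted p = 0.0191) was lost without sgctrl library 2 (-0.42), sgctrl library 3 (-0.47), sgRBM15-labelled library 1 (-0.39) or sgRBM15-labelled library 2 (-0.40), and once a GC and length trend was taken out (-0.37). ALDOC contributed 0.510 ± 0.046% and 0.396 ± 0.11% of aldolase FPKM, so the aldolase mRNA of these cells was almost wholly ALDOA.

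Lower glycolysis, from triose phosphate isomerase to pyruvate kinase, held 9 genes, of which 2 did not pass. Among the 9, 4 rose and 3 fell, against 25.3% and 29.2% of all genes tested. The 4 that rose did so by 0.13 to 0.16 on the log2 scale. PGK1, whose kinase makes ATP, stood at 99.5, 99.6 and 101 FPKM in the sgctrl libraries against 109.9, 109 and 110.3 FPKM in the sgRBM15-labelled libraries (log2 difference 0.13, and 0.05 without a call after the GC and length trend was removed). PGAM1, a mutase, rose from 308, 295 and 304 to 332, 339 and 334 FPKM (0.15). ENO1, the main enolase gene, stood at 1149.6, 1147 and 1167 FPKM in the sgctrl libraries against 1287, 1305 and 1238 FPKM in the sgRBM15-labelled libraries (0.14, SE 0.027, limma adjusted p = 0.00342). PKM, the pyruvate kinase gene of most tumour cells, rose from 624, 632 and 643 FPKM to 692, 735 and 699.9 FPKM (0.16). The values of these 4 genes did not overlap between groups. Gene-level FPKM do not separate the M1 and M2 splice forms of PKM.

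GAPDH, which makes the NADH of glycolysis and often serves as a reference gene, stood at 3356, 3427 and 3453 FPKM in the sgctrl libraries against 3248, 3185 and 3202 FPKM in the sgRBM15-labelled libraries. The groups did not overlap, but the log2 difference was only -0.09 (SE 0.022, limma adjusted p = 0.0127) and its direction depended on the setting. It was 0.042 once a GC and length trend was taken out and 0 under quantile normalization, which sets it to 0 because GAPDH had rank 2 in every library. Its call was also lost with median centring (-0.060), without a variance trend and without sgctrl library 3 (-0.079). TPI1, the triose phosphate isomerase gene, overlapped between groups at 606 ± 14.6 and 649 ± 29.8 FPKM. Its difference of 0.10 did not pass (adjusted p = 0.0650), but did on the TPM scale (0.12), with median centring (0.13), with quantile normalization (0.15), once a GC and length trend was taken out (0.21) and without sgRBM15-labelled library 1 (0.14). BPGM, whose mutase makes 2,3-bisphosphoglycerate, fell from 7.82, 7.10 and 7.94 FPKM to 5.59, 5.61 and 6.19 FPKM (-0.34, SE 0.064), without overlap.

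Of the minor enolase genes, ENO3 fell and ENO2 did not pass the test. ENO3, the muscle form, lies on chromosome 17 at 4948092 to 4957131 and stood at 9.54, 10.1 and 12.1 FPKM in the sgctrl libraries against 5.71, 5.32 and 5.58 FPKM in the sgRBM15-labelled libraries. Every control was above every library labelled knockout, and the difference of -0.82 (SE 0.086, limma adjusted p = 3.07e-04) was the second largest in size among the 34 genes. Exons of ENO3 overlap those of PFN1, the abundant profilin gene, which did not pass (906 ± 25.9 and 879.7 ± 16.0 FPKM, log2 difference -0.04). ENO2, the neuronal form, overlapped between groups at 35.3, 35.2 and 35.0 against 34.9, 36.3 and 41.7 FPKM, with sgRBM15-labelled library 3 above the rest (interval of the log2 difference -0.06 to 0.24). ENO1 was 96.2 ± 0.068% of enolase FPKM in the sgctrl libraries against 96.7 ± 0.35% in the sgRBM15-labelled libraries.

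**Figure D2:**
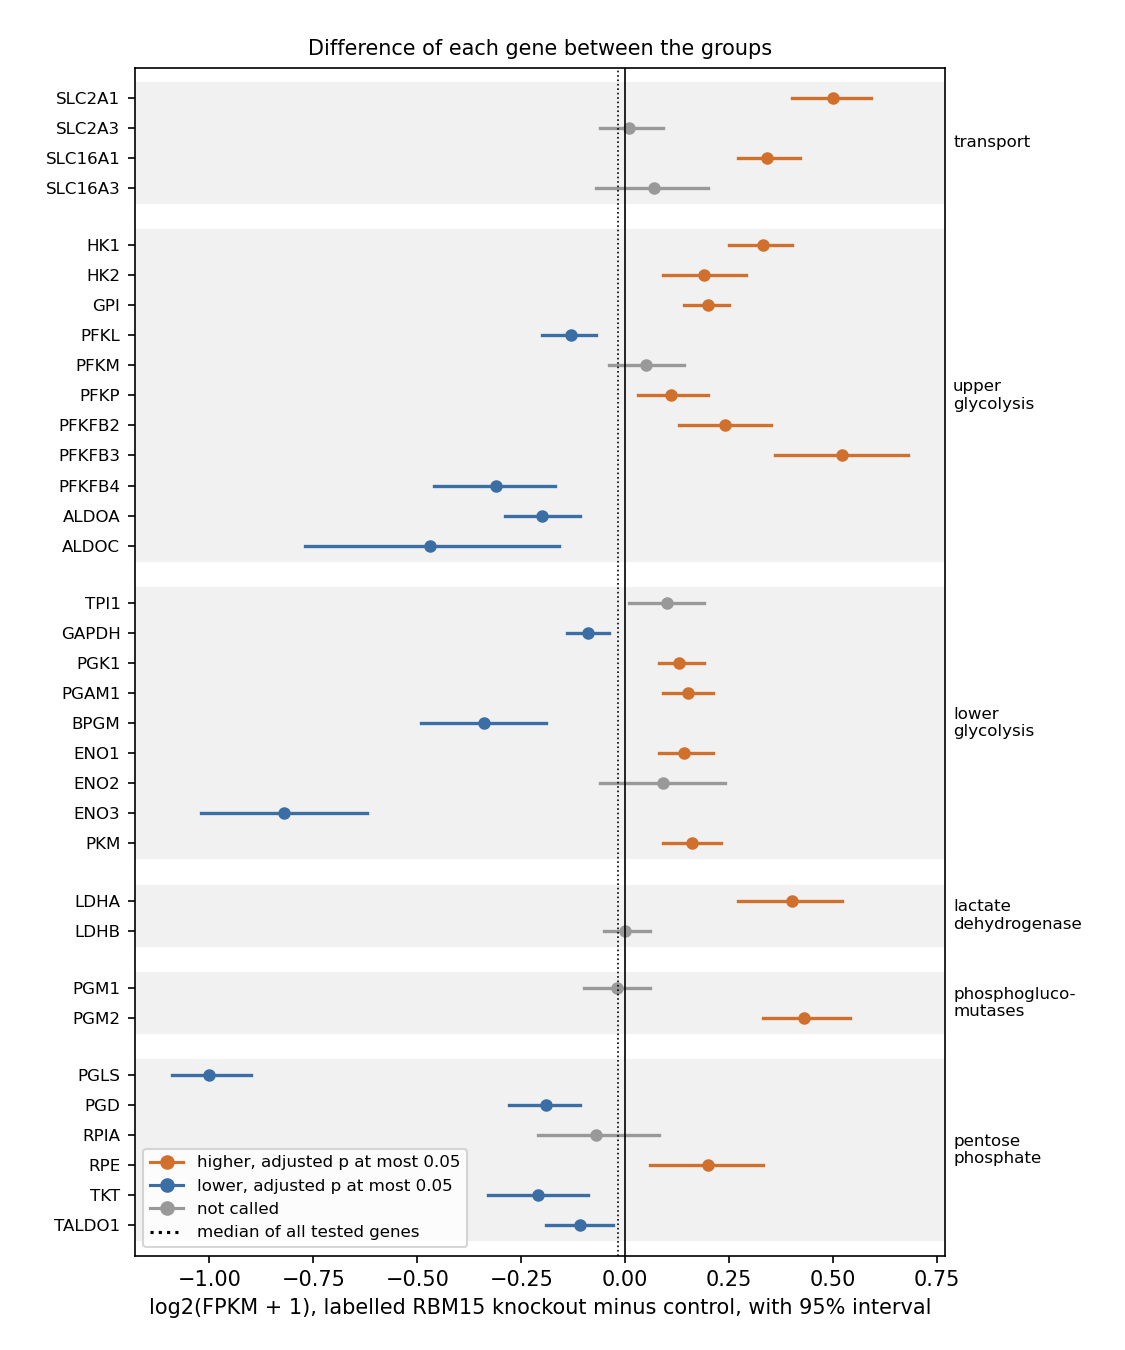
Log2 difference of each gene between the sgRBM15-labelled libraries and the controls (points) with its 95% interval from limma (bars), coloured by call, 3 libraries per group. The dotted line is the median of all tested genes (-0.018), and the points run from PGLS at -1.0 to PFKFB3 at 0.52.

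Lactate dehydrogenase works as a tetramer of A and B subunits, of which the A form favours lactate production. LDHA, on chromosome 11 at 18394388 to 18408425, stood at 641, 647 and 655 FPKM in the sgctrl libraries against 932, 829 and 803 FPKM in the sgRBM15-labelled libraries. The controls lay within a narrow range, all sgRBM15-labelled libraries were above them, and library 1 of the latter was the highest. The difference was 0.40 (SE 0.053, limma adjusted p = 8.91e-04), and 0.33 without that library. LDHB stood at 980, 993 and 1005 FPKM in the sgctrl libraries against 1015, 989 and 981 FPKM in the sgRBM15-labelled libraries. It overlapped between groups, with an interval of the log2 difference from -0.05 to 0.06. LDHA made up 39.6, 39.4 and 39.5% of lactate dehydrogenase FPKM in the sgctrl libraries against 47.9, 45.6 and 45.0% in the sgRBM15-labelled libraries. LDHB was the larger part in all 6 libraries.

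The phosphoglucomutase genes, which link glucose 6-phosphate with glucose 1-phosphate and ribose phosphates, held 1 member that rose, PGM2, and 1 that did not pass, PGM1. PGM2, whose enzyme also acts on pentose phosphates, stood at 22.3, 21.0 and 22.1 FPKM in the sgctrl libraries against 28.9, 29.4 and 31.2 FPKM in the sgRBM15-labelled libraries, without overlap (log2 difference 0.43, SE 0.044, limma adjusted p = 2.49e-04). PGM1, the main form and the one that feeds glycogen, overlapped at 54.3 ± 1.33 and 53.5 ± 0.758 FPKM (interval -0.10 to 0.06). PGM2 accounted for 28.7 ± 1.0% of the pair in the sgctrl libraries and 35.8 ± 0.86% in the sgRBM15-labelled libraries.

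**Figure D3:**
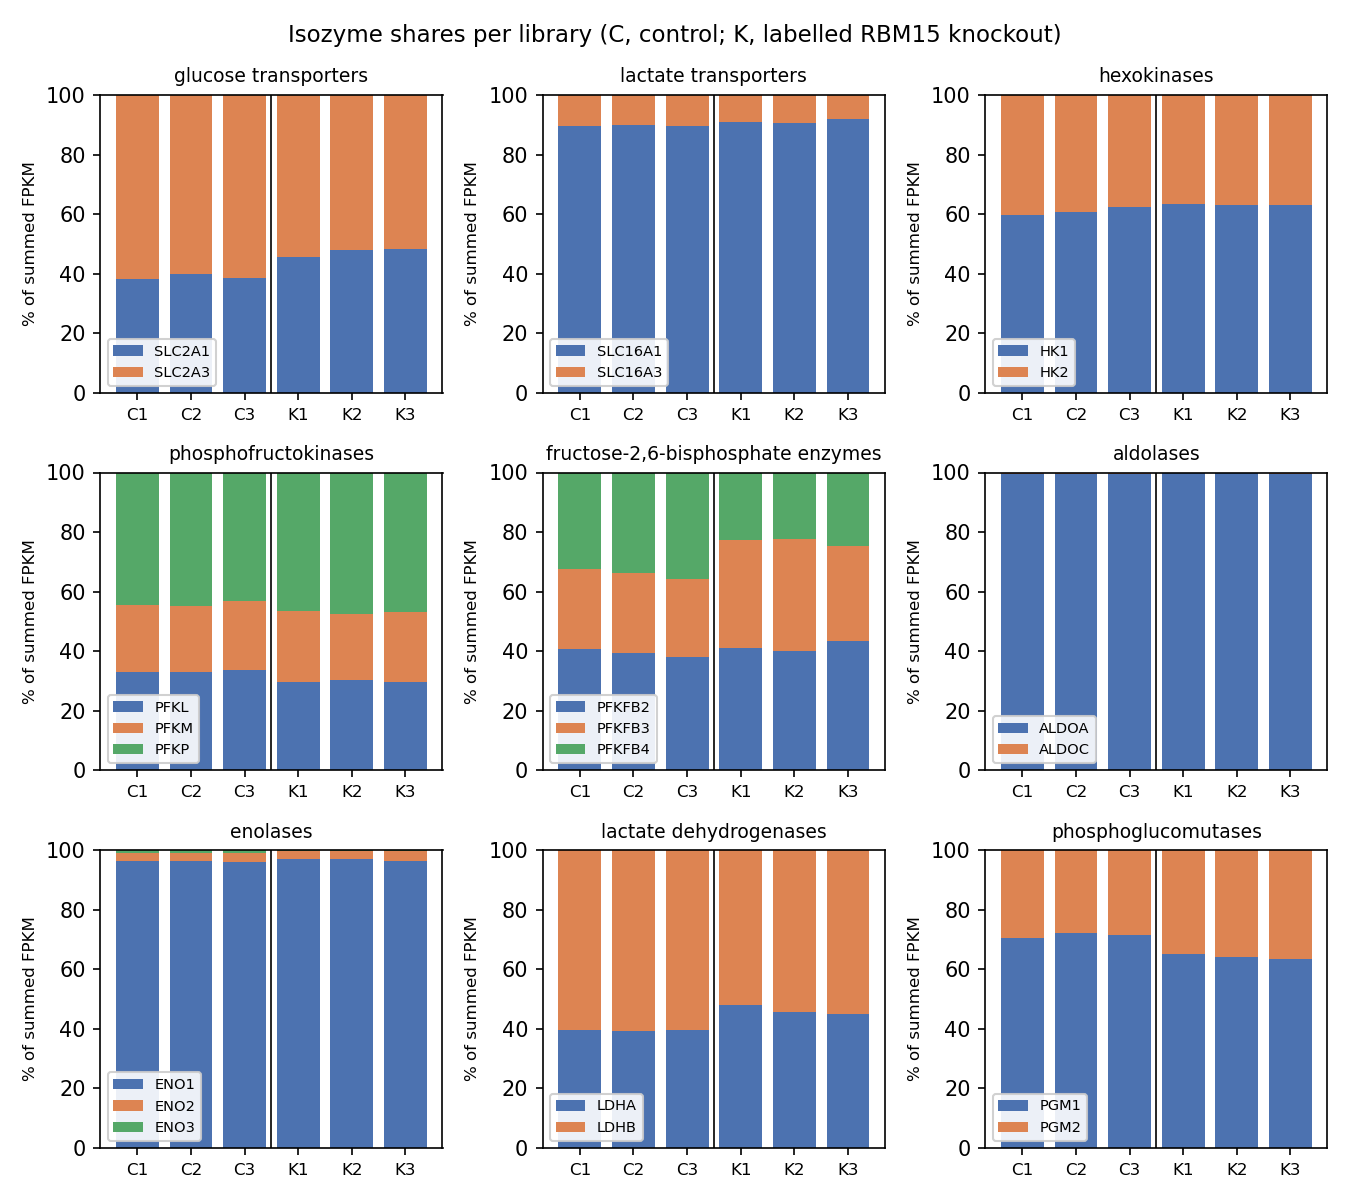
Share of each isozyme in the summed FPKM of its family (vertical axis, percent) in control libraries C1 to C3 and libraries K1 to K3 labelled RBM15 knockout. SLC2A1, PFKFB3, LDHA and PGM2 take a larger share in all 3 sgRBM15-labelled libraries, while ALDOA and ENO1 hold over 96% of their families in every library.

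In the pentose phosphate pathway 4 of 6 genes fell and 1 rose, against 29.2% and 25.3% of all genes tested. PGLS, which encodes 6-phosphogluconolactonase of the oxidative arm, had the largest difference of the 34 genes. It lies on chromosome 19 at 17511629 to 17521288 and stood at 43.9, 47.0 and 45.0 FPKM in the sgctrl libraries against 22.2, 22.7 and 21.6 FPKM in the sgRBM15-labelled libraries. The groups were far apart, with a ratio of means of 0.49 and a log2 difference of -1.0 (SE 0.040, limma adjusted p = 7.48e-06). Over all alternative settings this difference ran from -1.03 to -0.82, the last once a GC and length trend was taken out. PGD, the next enzyme of the arm and a source of NADPH, fell from 119.9, 121 and 124 FPKM to 103, 111 and 104 FPKM (-0.19, SE 0.037), without overlap.

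In the reversible arm, TKT, the transketolase gene, fell from 382, 369 and 383 FPKM to 343, 339 and 301 FPKM (log2 difference -0.21, SE 0.051, limma adjusted p = 0.0117), with sgRBM15-labelled library 3 the lowest. TALDO1, the transaldolase gene, stood at 178, 181 and 183 FPKM in the sgctrl libraries against 172, 170.3 and 161 FPKM in the sgRBM15-labelled libraries. Its groups did not overlap, but the difference was small (-0.11, adjusted p = 0.0252). The TALDO1 call was lost once a GC and length trend was taken out (-0.003), with median centring (-0.082), without a variance trend, and without sgctrl library 2 (-0.11), sgctrl library 3 (-0.10) or sgRBM15-labelled library 3 (-0.081). RPE, the epimerase gene, stood at 39.6, 37.7 and 39.8 FPKM in the sgctrl libraries against 46.4, 41.2 and 47.4 FPKM in the sgRBM15-labelled libraries (0.20, adjusted p = 0.0227). The sgRBM15-labelled library 2 lay nearest the controls, and the RPE call was lost without sgctrl library 2 (0.17), sgRBM15-labelled library 1 (0.18) or sgRBM15-labelled library 3 (0.16). RPIA, the isomerase gene that yields ribose 5-phosphate, overlapped between groups (17.5 ± 1.32 and 16.7 ± 0.645 FPKM, interval -0.21 to 0.08). The 6 genes together held 0.189 ± 0.00240% of all listed FPKM in the sgctrl libraries against 0.169 ± 0.00593% in the sgRBM15-labelled libraries, without overlap, while the 9 genes of lower glycolysis held 1.52 ± 0.00702% and 1.56 ± 0.0129%.

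**Figure D4:**
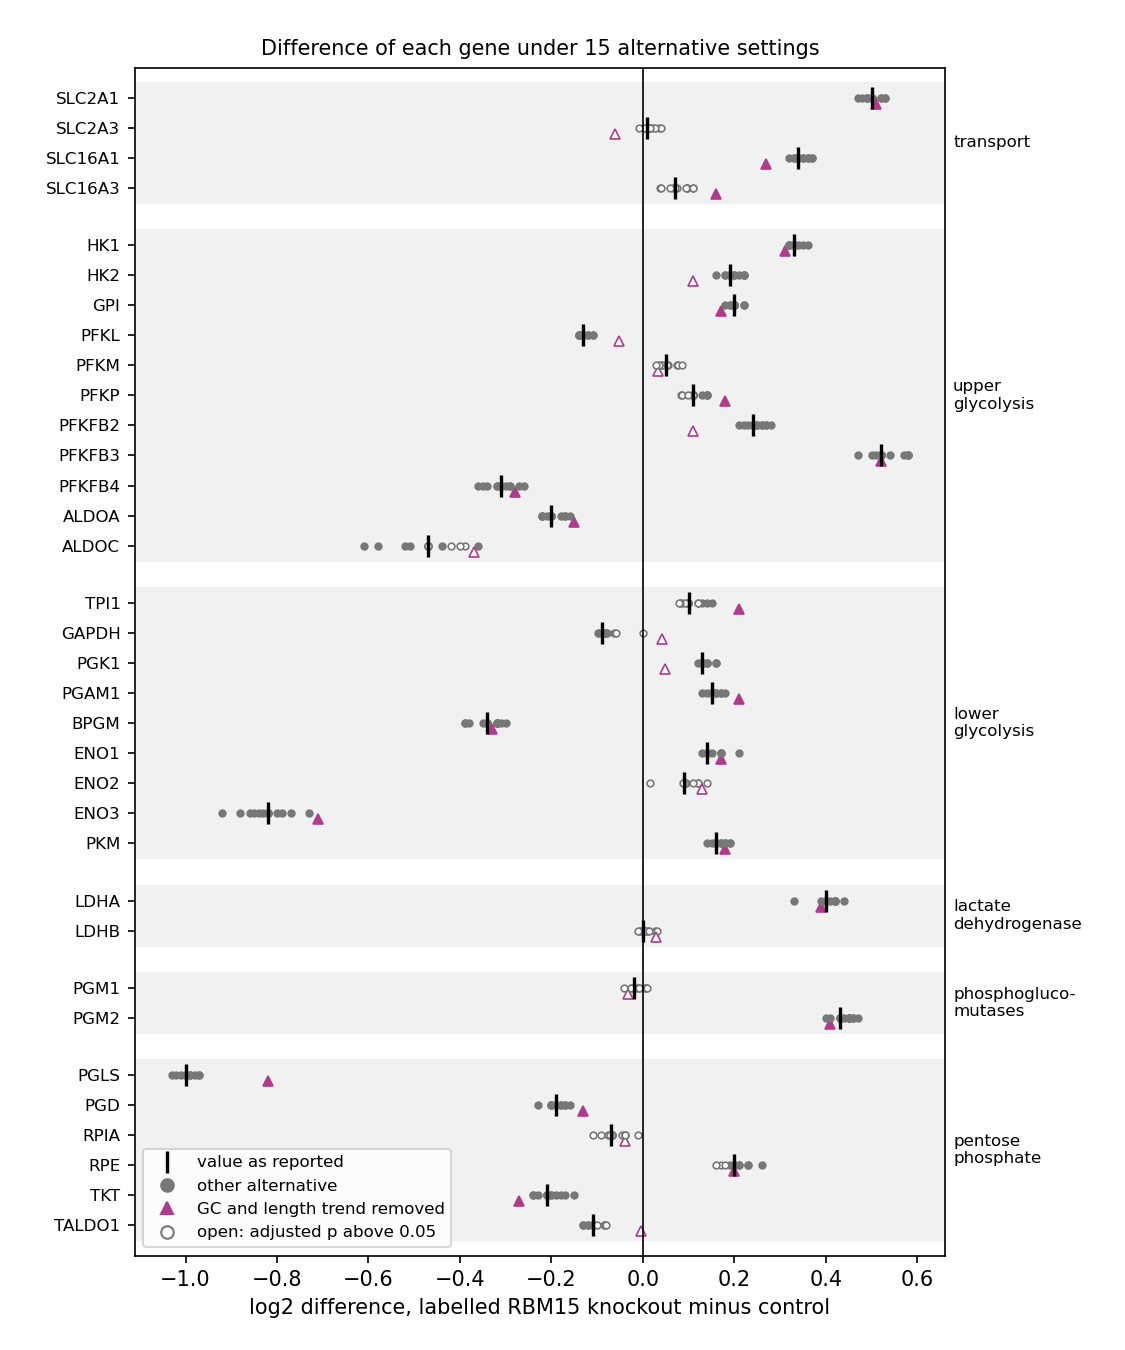
Log2 difference of each gene as reported (vertical bars) and under 15 alternative settings (points, open where the adjusted p exceeded 0.05), with triangles for removal of a GC and length trend. Among the called genes, the triangle is open and closer to 0 than the reported value for HK2, PFKL, PFKFB2, ALDOC, PGK1, TALDO1 and GAPDH. For GAPDH it lies on the other side of 0. PGLS, LDHA and SLC2A1 stay called in every setting.

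Of 40 other enzymes and transporters of these pathways, 20 were listed and 14 tested. Among the 14, 5 rose and 3 fell, against 25.3% and 29.2% of all genes tested. SHPK, the sedoheptulose kinase gene that feeds the reversible pentose arm, rose from 6.08 ± 0.391 to 11.4 ± 0.551 FPKM. H6PD, whose enzyme carries out the first oxidative steps inside the endoplasmic reticulum, fell from 9.86 ± 0.388 to 5.84 ± 0.211 FPKM, and the transporter genes SLC2A10 and SLC2A8 fell by 0.75 and 0.51 on the log2 scale. The isozyme genes PKLR and PGAM2 were not among the listed rows.

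Of 13 partners and regulators, 11 were tested, and 4 rose and 5 fell, against 25.3% and 29.2% of all genes tested. MLXIPL, which encodes the glucose-responsive transcription factor ChREBP, fell from 39.9 ± 1.34 to 14.5 ± 0.858 FPKM (log2 difference -1.40, SE 0.051, limma adjusted p = 5.98e-06). TXNIP, a glucose-induced gene whose product restrains glucose uptake, fell from 42.8 ± 1.32 to 26.6 ± 0.386 FPKM. TIGAR, whose phosphatase lowers fructose 2,6-bisphosphate, rose from 4.90 ± 0.210 to 7.46 ± 0.387 FPKM. SIRT6 fell by 0.32, without a call when the GC and length trend was removed (-0.09). All values of MLXIPL, TXNIP, TIGAR and SIRT6 lay outside the range of the other group, as did those of 63.0% of all genes tested.

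Of 33 genes of the side branches, 24 were tested: 7 rose and 9 fell, against 25.3% and 29.2% of all genes tested. Glycogen metabolism had 2 that rose and 4 that fell of 7, with the branching enzyme gene GBE1 higher by 0.29 and the phosphorylase gene PYGB lower by 0.28. The call of PYGL (0.28) was lost in several settings, among them without sgctrl library 1 (0.26), sgctrl library 3 (0.20), sgRBM15-labelled library 1 (0.32), sgRBM15-labelled library 2 (0.26) or sgRBM15-labelled library 3 (0.25). In hexosamine and mannose metabolism 3 rose and 3 fell of 8: the mannose enzyme gene PMM1 fell from 36.3 ± 0.961 to 20.1 ± 2.03 FPKM, GFPT1, the entry enzyme of the hexosamine route, fell by 0.26, GFPT2 fell by 0.67 at a low level (-1.18 with a pseudocount of 0.1), and PGM3 rose by 0.35. FBP1, the gene of the gluconeogenic bisphosphatase, rose from 5.65 ± 0.560 to 7.96 ± 0.658 FPKM. GPD2 rose by 0.30, the dihydroxyacetone kinase gene TKFC fell by 0.52, and HAGH, which acts in the removal of methylglyoxal, fell from 25.3 ± 1.23 to 16.4 ± 0.747 FPKM.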

How the data were processed

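RNA was measured in 6 libraries, and groups were taken from the titles. The authors deposited FPKM per gene, per the file headers and the labels. Per the submitters' processing notes, HISAT2 2.2.1, StringTie 2.0.4 and hg38 were used. Settings, annotation, use of strand and row filter: all not given in the sources used here. FPKM are scaled by the mapped total, and their low values showed no steps of whole reads (no window 0.1% wide held over 0.930% of the ratios formed from values under 0.5 FPKM), so depth is unknown and no counting interval is given. Precision rests on 3 libraries per group, whose correlation over genes was 0.992 to 0.993 inside groups and 0.976 to 0.978 from group to group.

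The test took the 11451 genes averaging 1 FPKM or more, which all members did. limma 3.58.1 (R 4.3.3) compared the groups on log2(FPKM + 1), which understates changes of low genes, without covariates and with a variance trend. Its 2-sided p-values were adjusted (Benjamini-Hochberg) for all 11451 genes. The fit was tested on simulated data in which 200 genes changed, by more than most members did here. That simulation does not show how the fit performs on changes as small or as widespread as those reported. Isozyme shares are percentages of a family's summed FPKM in a library, with no test. Plots were drawn with matplotlib 3.10.9, after tabulation in pandas 2.3.3 with scipy 1.17.1 and numpy 2.4.6 (Python 3.11.15). Coordinates are from GENCODE 29, and promoters from RefSeq (GRCh38.p14). GC content and length came from the longest GENCODE transcript, known for 97.5% of tested genes.

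The members, lists and tests were chosen with earlier results of these data known. The rule named every member, with values per library for those past the test and group means for others, and up to 4 changed genes of each other list with the largest difference. Some genes of these lists are not reported here. Promoter windows were chosen for printing after the search, and the class of genes with at least 50 FPKM after the data were seen. Alternatives were no filter, a filter at 5 FPKM, a pseudocount of 0.1, quantile normalization, the TPM scale, no variance trend, median centring, a replicate block, removal of a GC and length trend (natural splines, 5 degrees of freedom each) and leaving out each library.

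Exons of 9 members overlap those of another listed gene, and 15 members have named pseudogenes in GENCODE 29 (113 in all, 62 of them of GAPDH), none of which was listed. How reads were divided between such copies was not stated, so the values of these genes depend on that division.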

Additional observations from a re-analysis of the deposited data

How the results depend on the processing

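The counts of called members, 26 in all, 15 higher and 11 lower, stayed within 1.5 times of these in every setting but 1: once a GC and length trend was taken out, 7 members were lower. Leaving out 1 library gave 22 to 25 called members, 13 to 15 higher and 8 to 11 lower. Of the 26, 17 stayed called in every alternative run. The direction of 4 genes turned, and the cause was not tested. SLC2A3 was at -0.061 once a GC and length trend was taken out, and at -0.009 to 0.027 with 1 library left out. GAPDH was at 0.042 with that trend removed. LDHB was at -0.005 under quantile normalization, and between -0.011 and 0.013 with 1 library left out. PGM1 was at 0.008 under quantile normalization, 0.007 with median centring and 0.004 on the TPM scale. The median of all genes stayed between -0.027 and 0.025 under every setting.

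The replicate numbers were not taken to pair the libraries: deviations of same-numbered libraries from their group means correlated at -0.0354, -0.0367 and 4.54e-05, and no library correlated best with its own number. With the replicate number as a block, 24 members were called, 14 higher and 10 lower, against 5782 genes in all. PFKP (0.11, adjusted p = 0.0650), TALDO1 (-0.11, adjusted p = 0.0580) and PYGL (0.28) were not called there, and the block changed no other call given in the report.

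The depth of the libraries is unknown, so it cannot be said how much of the spread of low genes such as ALDOC is counting error. ALDOC was not tested with the filter at 5 FPKM. The smallest called difference among the members was that of GAPDH (-0.09).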
